A study of Mus musculus with 2 samples.

Results

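Mir191 and Mir425 are neighbouring microRNA (miRNA) genes on mouse chromosome 9. Their rows were found in the count tables of 2 adrenal gland libraries by the gene symbols of the annotation, and they are 2 of 2202 miRNA genes counted. The members were chosen by gene symbol with their same-strand CPM and the contrast between count columns already known, so the levels and the difference between count columns given below are descriptions and carry no test. The series has 1 group, adrenal gland tissue of C57BL/6J mice, an inbred strain, with biological replicates 1 and 2 and no treatment. A free-text label describes the mice as WT and male, the sex field reads not collected, and age and developmental stage are unknown. The replicates have separate biosample records but 1 donor record, so they are not shown to be separate animals, and their differences may be technical. No conditions exist to compare.

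An miRNA is cut from a hairpin in a longer primary transcript. An arm of the hairpin is loaded into Argonaute and pairs with target mRNAs mainly through its seed, bases 2 to 8 from the 5′ end, which lowers their stability and translation. Mir191 and Mir425 are a conserved pair whose hairpins are known to be cut from 1 primary transcript. miR-191 is expressed in many tissues and has been used as a reference in qPCR. miR-425 is known as a repressor of the human natriuretic peptide gene NPPA.

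The mature sequences are shown with the seed in capitals, because they show that the neighbours carry different seeds and which other miRNA shares one. They come from RefSeq on build GRCm38.p6, where both genes were matched, and the last line is the sole other mature miRNA of that table with the seed of a member arm.
mmu-miR-191-5p: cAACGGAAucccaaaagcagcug
mmu-miR-191-3p: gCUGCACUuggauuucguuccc
mmu-miR-425-5p: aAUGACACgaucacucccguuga
mmu-miR-425-3p: aUCGGGAAugucguguccgcc
mmu-miR-489-3p: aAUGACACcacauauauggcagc
The 4 member arms have 4 different seeds. The seeds of miR-191-5p and miR-425-3p contain the dinucleotide CG, as do those of 219 of the 1679 mature miRNAs in the RefSeq table (13.0%). miR-489-3p is identical to miR-425-5p over its first 8 bases and matches it at 4 of the remaining 15.

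The hairpins are printed with the annotated arms in capitals to show where the counted reads can fall, since the tables count reads per hairpin and do not separate the arms.
Mir191: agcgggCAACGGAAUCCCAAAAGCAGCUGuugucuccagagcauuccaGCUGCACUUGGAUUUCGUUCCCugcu
Mir425: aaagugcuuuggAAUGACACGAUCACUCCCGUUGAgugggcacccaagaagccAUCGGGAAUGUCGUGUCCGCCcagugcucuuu
Mir191 (ENSMUSG00000105497.1) lies at chr9:108568319-108568392 on the forward strand of mm10 and is 74 nt long, with 19 nt between its arms. Mir425 (ENSMUSG00000065579.1) lies downstream at chr9:108568777-108568861 on the same strand and is 85 nt long, with 18 nt between its arms. The hairpins are 384 nt apart, and their GC contents are 54.05% and 54.12%. Neither hairpin shares a stretch of 20 nt on its own strand with any of the other miRNA genes counted. In 141767 GENCODE M21 transcripts, each of the 4 mature sequences was found in its own gene and in 4833445I07Rik, and in no other gene on the same strand. Copies elsewhere in the genome were not searched.

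In GENCODE M21, the annotation used for the counts, both hairpins lie within the long noncoding RNA gene 4833445I07Rik (chr9:108567533-108569174), whose annotation tags it as a host of small RNAs. Mir191 is exonic in its unspliced transcript 4833445I07Rik-201 and intronic in 4833445I07Rik-202. Mir425 is exonic in the first and begins past the end of the second, with 2 nt between them. The protein-coding gene Dalrd3 starts 1024 nt downstream of Mir425 in GENCODE M21. RefSeq on GRCm38.p6 gives Dalrd3 a longer span, from 108567484 to 108572773, which contains both hairpins.

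**Figure D1:**
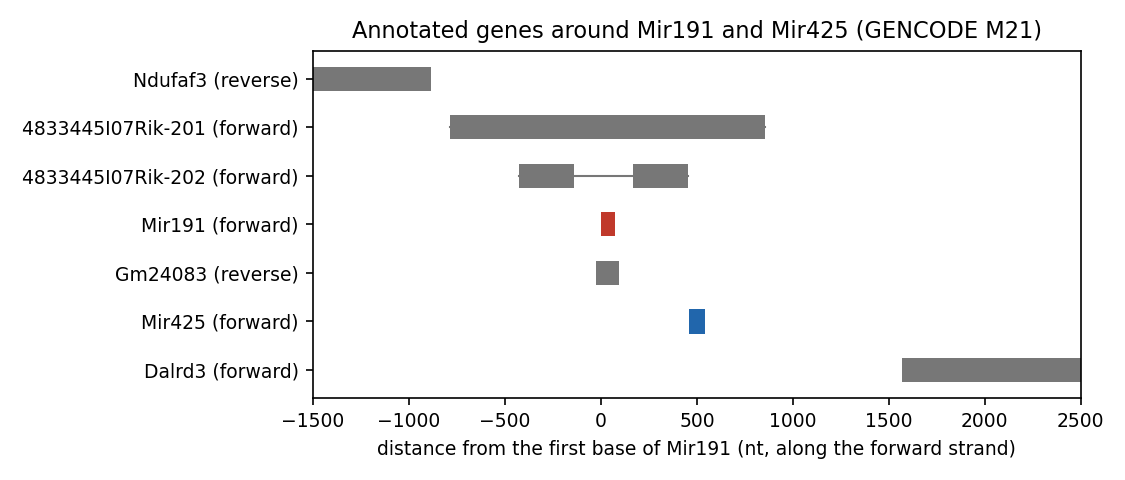
Genes annotated around Mir191 and Mir425, drawn to scale by distance in nt from the first base of Mir191 along the forward strand. Boxes are genes, or exons for the transcripts of 4833445I07Rik, and the thin line is an intron. Mir191 lies inside the reverse-strand gene Gm24083, while nothing is drawn opposite Mir425.

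The annotation also places a miRNA gene on the strand opposite Mir191. Gm24083 (ENSMUSG00000092915.1, chr9:108568295-108568414, reverse strand) is 120 nt long and covers all 74 nt of Mir191. Its sequence from the GENCODE M21 transcripts is printed, as DNA letters, with the stretch that is the reverse complement of the Mir191 hairpin in capitals, because this overlap sets the counts that follow.
Gm24083: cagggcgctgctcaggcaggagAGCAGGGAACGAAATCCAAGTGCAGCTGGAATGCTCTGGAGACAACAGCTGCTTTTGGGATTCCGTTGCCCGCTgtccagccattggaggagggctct

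Each table holds 3 count columns, read here as unstranded counts, same-strand counts and opposite-strand counts. On its own strand Mir191 had 48109 counts in replicate 1 and 19334 in replicate 2. In the column without strand it had 0 in both. Gm24083 had 0 counts on its own strand in both replicates, and in its opposite-strand column it had 48109 and 19334, the same numbers as Mir191 on its own strand. A count of 0 for Gm24083 allows up to 3 counts per library, so Mir191 was at least 16036-fold higher in replicate 1 and at least 6445-fold higher in replicate 2. Intervals and such limits cover counting error only.

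Mir425, with no gene of the tables opposite it, had 7813 and 2503 counts on its own strand, the same 7813 and 2503 without strand, and 0 and 0 on the opposite strand. The choice of column thus removed Mir191 from the profile and left the counts of Mir425 as they were. Reads set aside as ambiguous in the column without strand numbered 1270123 and 438473, and the Mir191 counts equalled 3.79% and 4.41% of them.

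Loss of this kind was also seen at other detected genes with a miRNA gene opposite them. Of 2202 miRNA genes 64 have one, and 25 of these reached a mean of 10 CPM (depth-scaled counts, relative to all counts assigned to miRNA genes). In the column without strand, 24 of these 25 kept under 1% of their counts in both replicates. Mir191 ranked 3 by level among the 24, after the endothelial Mir126a, which kept 12 of 922889 counts in replicate 1 and 4 of 337036 in replicate 2, and after Mirlet7e of the let-7 family, which kept none. All values below use counts on the strand of the gene.

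**Figure D2:**
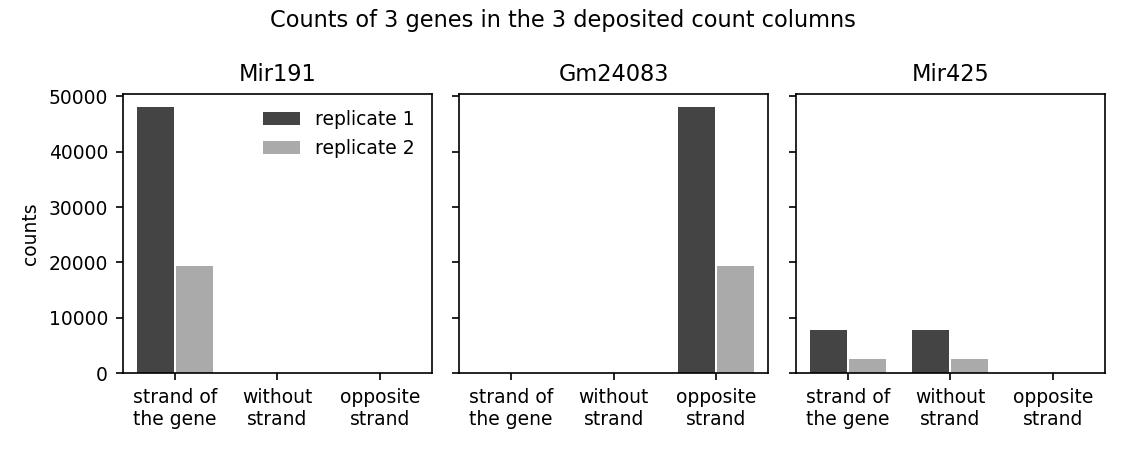
Counts of Mir191, Gm24083 and Mir425 in the 3 deposited columns (on the strand of the gene, without strand, on the opposite strand), with 1 bar per library. The Mir191 bars of 48109 and 19334 reappear as opposite-strand counts of Gm24083 and are absent without strand, where Mir425 keeps 7813 and 2503.

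By counts assigned to miRNA genes, Mir191 was an abundant miRNA gene of the adrenal gland, and Mir425 a moderately abundant one. Multimapping reads, 32.6% of reads in replicate 1 and 22.7% in replicate 2, were not counted. Genes that share sequence with other hairpins may be undercounted, so shares and ranks hold for reads placed at 1 locus. The level of Mir191 was 4687 CPM in replicate 1 and 5484 CPM in replicate 2, with a mean of 5086 ± 563 CPM (SD, n = 2). As a share of assigned counts this was 0.469% (exact Clopper-Pearson 95% interval 0.465% to 0.473%) and 0.548% (0.541% to 0.556%). It ranked 32 in replicate 1 and 29 in replicate 2. The level of Mir425 was 761 CPM in replicate 1 and 710 CPM in replicate 2, with a mean of 736 ± 36.3 CPM. Its shares were 0.0761% (0.0744% to 0.0778%) and 0.0710% (0.0682% to 0.0738%), and its ranks 83 and 80. Over assigned counts, the replicates gave the members opposite orders, with replicate 2 the higher for Mir191 and replicate 1 the higher for Mir425. Over all reads, replicate 1 was the higher for both members. In bulk tissue, a difference in the number of cells that express a gene cannot be told apart from a difference in RNA per cell.

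Among the 2202 genes Mir191 ranked 31 by mean CPM. The genes just above it were Mir125a (4510 and 6996 CPM in replicates 1 and 2) and Mir29a, known to repress extracellular matrix genes (4283 and 6053 CPM). Just below it were Mir744 (4652 and 5191 CPM) and Mir451a, abundant in red blood cells (8085 and 1685 CPM). All 4 had ranges over the replicates that overlapped that of Mir191, so its place among them is not fixed by 2 libraries.

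Mir425 ranked 82. It followed Mir27a (675 and 817 CPM) and Mir214, a miRNA gene of stromal cells (595 and 881 CPM). It preceded Mirlet7c-1 (611 and 835 CPM) and Mir137, known from neurons (595 and 823 CPM). The ranges of these 4 also overlapped that of Mir425. Mir27a and Mirlet7c-1 have stretches of 20 nt in common with other hairpins, so their own levels are uncertain.

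**Figure D3:**
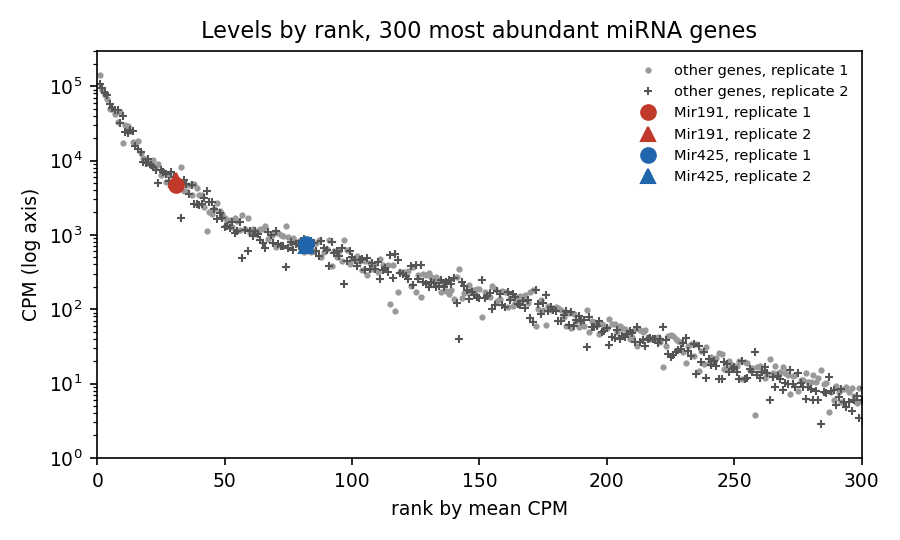
CPM on a log axis against rank by mean CPM for the 300 most abundant miRNA genes, with each replicate drawn separately. Mir191 stands at rank 31 and Mir425 at rank 82, and their points for the 2 replicates nearly coincide on this scale.

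On chromosome 9, Mir191 was second to Mirlet7g, and Mir425 ranked 5 of 96 miRNA genes, 13 of which reached a mean of 10 CPM. Mir100 (4638 ± 1139 CPM, SD, n = 2) and Mir34c (1179 ± 974 CPM) stood between them. Mirlet7a-2, Mir125b-1, Mir138-1 and Mir26a-1, all lower on this chromosome, have stretches of 20 nt in common with other hairpins. Their levels are uncertain, so these ranks hold for reads placed at 1 locus. The nearest miRNA genes on either side, Gm47303 and Gm26298, had no count. Gm26298 shares stretches of 20 nt with other hairpins, so its count of 0 sets no limit. The nearest genes that averaged 10 CPM or more were Mirlet7g upstream and Mir6236 downstream (13.6 ± 0.39 CPM), both over a megabase away, so no other detected miRNA gene adjoins the pair.

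Of the genes with a RefSeq mature miRNA of seed AUGACAC, Mir425 was detected, counted per hairpin and not per arm. Mir489, the gene of miR-489-3p, was not detectable at this depth. Mir489 (ENSMUSG00000070107.1, chr6:3721897-3722003) had 0 counts in both replicates and shares no stretch of 20 nt with another hairpin counted. Up to 3 counts remain possible, which is 0.292 CPM in the first library and 0.851 CPM in the second. Mir425 was therefore at least 2604-fold higher in replicate 1 and at least 834-fold higher in replicate 2, in reads placed at 1 locus.

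Within each library Mir191 had several-fold more counts than Mir425, which is a ratio of reads and not a measured ratio of molecules. Replicate 1 held 6.16 Mir191 counts for each Mir425 count (exact 95% interval 6.01 to 6.31), and replicate 2 held 7.72 (7.41 to 8.06). These ratios need no scaling between libraries, and their counting intervals did not overlap. On the log2 scale the ratios were 2.62 and 2.95, a mean of 2.79 ± 0.23 (SD, n = 2). Mir191 made up 86.0% of the counts of the pair in replicate 1 and 88.5% in replicate 2. Together the members held 0.545% and 0.619% of assigned counts.

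Unequal counts were common among neighbouring miRNA genes. Between genes on the same strand, at most 10 kb apart and each with a mean of at least 10 CPM, there were 327 pairs of 135 genes. Their median log2 ratio, taken without sign, was 1.99 (quartiles 0.89 and 3.89), and 207 of the 327 lay below the 2.79 of Mir191 and Mir425. The within-pair log2 ratio of Mir191 and Mir425 differed by 0.33 between the replicates, against a median difference of 0.49 over the 327 pairs (quartiles 0.23 and 0.81), and 115 pairs had a smaller one. Chromosome 12, with its large imprinted miRNA cluster, gave 250 of the pairs. Without it the median difference was 0.38 over 77 pairs, of which 32 lay below 0.33. Pairs share genes and are not independent. Some pairs hold a gene with 20 nt in common with another hairpin, whose level is uncertain. An example is Mir23b and Mir24-1, with a log2 ratio of 9.97. Such pairs were not left out, so the 327 pairs are not all like Mir191 and Mir425 in this respect.

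**Figure D4:**
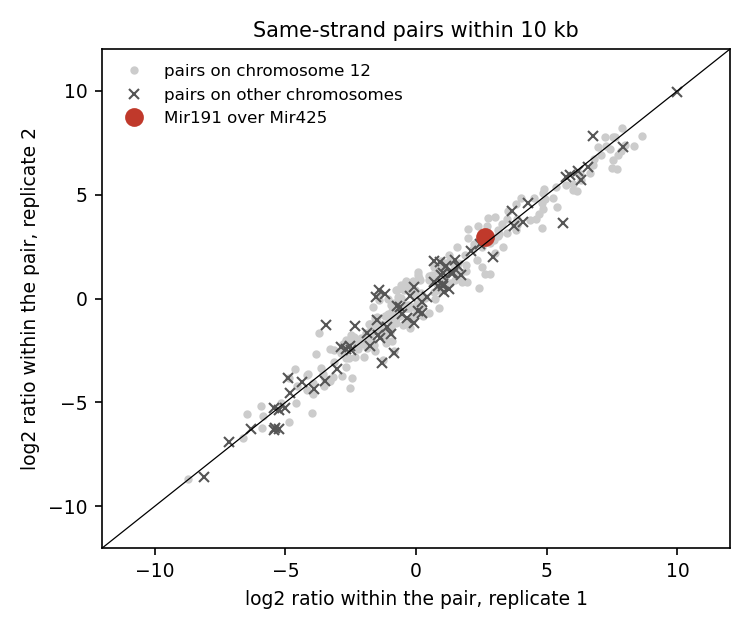
Log2 ratio within each same-strand pair at most 10 kb apart (the gene at the lower coordinate over the other), replicate 2 against replicate 1, with the line of equal values. Mir191 over Mir425 lies at 2.62 and 2.95, close to the line and inside the spread of the other pairs.

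Relative to counts assigned to miRNA genes, the replicates differed slightly but beyond counting noise for both members, in opposite directions. The log2 ratio of replicate 2 over replicate 1, after TMM scaling with 0.5 counts added, was 0.21 for Mir191 (exact 95% interval 0.18 to 0.23), a 1.16-fold difference. By the exact two-sided binomial test with Benjamini-Hochberg adjustment over 443 genes, its adjusted p was 8.9e-63. For Mir425 the log2 ratio was -0.12 (-0.18 to -0.05), or 1.09-fold higher in replicate 1, with an adjusted p of 0.00084 by the same exact test. This test sets 1 library against 1, so its p-values cover counting error only and say nothing of conditions. It called 52.8% of the 443 genes, 21.2% as higher in replicate 2 and 31.6% as higher in replicate 1, and 94.0% of the 83 genes whose counts summed to 10000 or more. A call is therefore the usual outcome at the depth of these members. The Mir425 call was lost with DESeq2 size factors, where its log2 ratio was -0.057 and its adjusted p 0.15 by the exact test. It was also lost in the column without strand (-0.040, adjusted p 0.35, exact test), where the Mir425 counts were the same and the library scaling differed. The DESeq2 factors were 1.732 and 0.577, identical for same-strand and unstranded counts. They rest on a median over all genes counted in both libraries, genes with few counts included, so they are a coarse scaling here. The median log2 ratio of all genes tested was -0.17, so the ratio of Mir425, although below 0, was above that of the median gene.

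In size, the differences were small against those of other genes. Over the 277 genes that averaged 10 CPM or more, the median log2 ratio, taken without sign, was 0.40 (quartiles 0.20 and 0.64). It was smaller than that of Mir191 in 72 genes (26.0%) and smaller than that of Mir425 in 46 (16.6%). Among the 24 genes within 2-fold of Mir191 in mean CPM, Mir191 included, the median was 0.37 and 5 had a smaller ratio than Mir191. Among the 61 within 2-fold of Mir425, Mir425 included, it was 0.41 and 10 had a smaller ratio than Mir425.

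**Figure D5:**
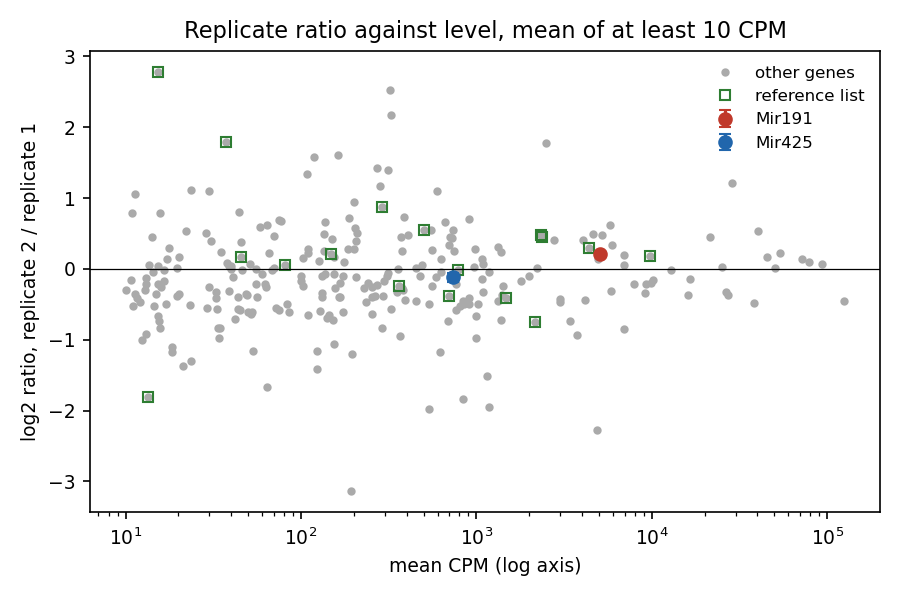
Log2 ratio of replicate 2 over replicate 1 against mean CPM (log axis) for the 277 genes that averaged 10 CPM or more. Bars on Mir191 and Mir425 are exact 95% intervals, and squares mark the 17 reference miRNA genes above 10 CPM. Mir191 at 0.21 and Mir425 at -0.12 lie near 0, on opposite sides of it.

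Because miR-191 has served as a qPCR reference, the members were set beside 18 other genes of miRNAs used in that role. Of these, 9 were called higher in replicate 2, 6 higher in replicate 1 and 3 were not called by the exact binomial test. The 15 of 18 called stand beside 52.8% of all 443 genes and 94.0% of the 83 deepest. Their median log2 ratio without sign was 0.43, beside 0.45 over all 443 genes tested. Of the 18, 4 had a smaller ratio than Mir191, namely Mir93, Mir186, Mir99b and Mir24-1, and Mir25 was level with it at 0.21. Over all 443 genes tested, 98 had a smaller ratio than Mir191, a like share. Mir93, of the cluster within Mcm7, had the smallest, with 786 and 790 CPM and a log2 ratio of -0.01. Mir26a-1 had the largest, with 3.80 and 26.7 CPM and a log2 ratio of 2.78. Mir26a-1 is 1 of 8 list members with a stretch of 20 nt in common with another hairpin, whose levels are uncertain. The other 10 had a median of 0.26, with 3 below Mir191. The values over 2 libraries describe these libraries and do not rank references.

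The genes whose replicate ratio was most like that of each member were sought among 179 others with a mean of at least 100 CPM. Over 2 libraries likeness is the gap between single log2 ratios. For Mir191 (0.21) these were Mir25 (0.21), Mir374b (0.22) and Mir23a (0.23), of which Mir374b and Mir23a have 20 nt in common with another hairpin. For Mir425 (-0.12) they were Mir154 (-0.11), Mir542 (-0.11) and Mir674 (-0.11). Neither member was among the genes most like the other.

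The libraries differed in depth and in some cell type markers. Replicate 1 held 20598186 reads with 10263894 assigned to miRNA genes, and replicate 2 held 10628898 reads with 3525666 assigned, while 13.8% and 41.4% of reads were unmapped. Of the 4 neuroendocrine markers, which mark the adrenal medulla, Mir375 had 72033 ± 5673 CPM (SD, n = 2), Mir7b 4150 ± 838, Mir7-1 365 ± 161 and Mir7-2 205 ± 40.6, the last 2 uncertain through 20 nt in common. Of the skeletal and cardiac muscle markers, 4 of 5 had no count, all of them with a copy that shares 20 nt. The liver marker Mir122 was present, with 104 CPM in replicate 1 and 97.6 in replicate 2. The endothelial marker Mir126a had 89916 and 95595 CPM, and the 2 smooth muscle markers summed to 25619 and 26619 CPM. The 3 erythroid markers summed to 8370 CPM in replicate 1 and 1814 in replicate 2, mostly from Mir451a (8085 and 1685 CPM). Mir144 was also called higher in replicate 1. Mir486 (13.2 and 9.93 CPM) was not called, and its level is uncertain through 20 nt in common. The 4 leukocyte markers, led by Mir142, summed to 681 and 984 CPM, and their members did not all differ in 1 direction, with Mir155 at 172 and 108 CPM. None of the erythroid or leukocyte markers was at 0. Mir191 is also expressed in blood cells, and the part of blood cells and of depth in the replicate differences of Mir191 and Mir425 was not tested.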

How the data were processed

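Small RNA libraries, with inserts below 30 nt per the labels, had been sequenced from 2 adrenal gland samples. The authors deposited raw counts per miRNA gene, 1 table per library, on mm10 with GENCODE M21, per the description files beside the tables. For the aligner and the counter, names and versions were not given in the sources used here. Unmapped, multimapping, no-feature and ambiguous reads stand in 4 summary lines (50.2% and 66.8% of reads), which entered neither library sizes nor tests. The columns carry no header and were read from their values as without strand, same strand and opposite strand.

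CPM was computed over same-strand counts of all 2202 genes. edgeR 4.0.16 in R 4.3.3 gave TMM factors of 0.994 and 1.006. An edgeR quasi-likelihood test was not run, since 1 group holds no contrast. Replicates were compared by an exact binomial test for genes with at least 10 counts in all, tested on simulated data, with Python 3.11.15 and scipy 1.17.1. Alternatives were DESeq2 1.42.0 size factors, assigned totals, other denominators, no count filter and no added counts. The column without strand and each replicate alone were also used. Named were the members, overlapping and adjoining genes, rank neighbours, genes of like ratio or equal seed, extremes of the reference list and leading markers. Members and lists were chosen with earlier results of these data known.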

Additional observations from a re-analysis of the deposited data

How the results depend on the processing

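Of 23 alternative values other than single replicates, 17 were labelled the same. They kept their direction and side of the threshold, moved within the spread, or, for numbers of genes called, stayed near the main number. Some of these could hardly move. Leaving out the added counts does not enter the exact test, and dropping the count filter does not enter the log2 ratios. In the column without strand the mean level was 0 CPM for Mir191 and 840 CPM for Mir425, where the total is smaller. With all reads as the denominator the means were 2077 CPM and 307 CPM. With that denominator replicate 1 was the higher for both members, so their opposite directions hold only relative to assigned counts. Each replicate alone gave 4687 to 5484 CPM for Mir191, 710 to 761 CPM for Mir425 and 2.62 to 2.95 for the log2 ratio of Mir191 to Mir425, values that lie within 1 SD of their mean by construction. The Mir425 replicate log2 ratio was -0.057 with DESeq2 size factors (adjusted p 0.15, exact binomial test) and -0.040 without strand (adjusted p 0.35, exact binomial test). In its other alternatives the adjusted p of this test was 0.00084 to 0.0051. The Mir425 counts were the same in every setting, so these log2 ratios differ from the main one only through the library scaling. That of Mir191 ran from 0.21 to 0.27, all called. Genes called as different numbered 206 to 234, out of unlike numbers tested. They were 234 of 443 in the main setting, 206 of 418 without strand and 226 of 767 without the count filter. The share called was thus smaller without the filter. Without strand Mir191 had no count, so no replicate ratio or pair ratio could be computed there. No paired analysis was possible because the series holds 1 group. Leaving out chromosome 12 from the neighbour pairs was chosen after seeing the data. Ratios between replicates need both libraries, so none was computed with a replicate left out.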
